A study of Mus musculus with 18 samples.

Results

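Schwann cells are the glia that ensheathe and myelinate the motor and sensory axons running through skeletal muscle. The 7 genes described here across muscle ageing, Mbp, Pmp22, Prx, Mag, Egr2, S100b and Sox10, encode parts of the myelin sheath or mark and control these cells. The genes were taken by symbol from the table of normalized RNA-seq counts of the study, in which they hold 7 of 23425 rows, and all 7 passed the filter of a mean normalized count of at least 10 that left 13183 genes for testing. RNA was sequenced from ground whole hindlimb muscle. The mice were C57BL/6J females aged 2, 20 or 28 months, with 3 mice per age and 1 library per mouse. The mice carried no transgene and received no treatment according to the labels, so age is the only factor. DNA of hindlimb muscle and of spleen T cells at the same ages was enriched for methylated fragments with a protein domain that binds methylated CpGs (MBD-seq), each time on 1 pool from 3 mice.

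A myelinating Schwann cell wraps its membrane many times around 1 axon segment, and compact myelin forms where the layers are held together, with Mbp and Pmp22 among its proteins. Prx and Mag lie outside compact myelin, Prx in the outer membrane that faces the basal lamina and Mag on the innermost wrap that faces the axon. The transcription factor Sox10 keeps the Schwann cell lineage and, with Egr2, switches on the myelin genes, whereas S100b, a calcium-binding protein, is widely used as a Schwann cell marker. Nerve is a small share of whole muscle, and in RNA of the whole tissue fewer Schwann cells and less RNA per Schwann cell cannot be told apart.

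The 9 libraries held 33051271 to 121485345 reads on genes. The library numbered 3 stood apart at every age: its normalized counts summed to 62379192 to 66187826, where those of the other 6 libraries summed to 87711925 to 98056025, and its 10 most abundant genes took 53.9% to 55.3% of the reads against 65.6% to 69.0%. The labels do not say that the libraries numbered 3 were a batch. Because the level of the myelin genes moved with this number (below), differences are also given separately for the libraries numbered 1 and 2 and for those numbered 3. A normalized count is the number of reads on a gene divided by a size factor of the library. A gene was called changed between 2 ages when its adjusted p was under 0.05 by limma on log2(normalized count + 1) with Benjamini-Hochberg adjustment over all 13183 genes. The exact permutation test of a single gene, two-sided, cannot go below p = 0.1 with 3 mice against 3.

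All of the 8 Schwann cell markers looked at (Sox10, S100b, Mbp, Mag, Prx, Cdh19, Erbb3 and Egr2) had reads in each of the 9 libraries. All but Cdh19 and Erbb3 are among the 7 genes themselves, so this does not show which cells the reads came from. The levels differed widely. Per kilobase of the longest annotated transcript, the mean normalized count over the 9 libraries was 912 for Pmp22, 318 for Mbp and 124 for Prx. It was 46.2 for S100b, 34.9 for Sox10, 13.7 for Egr2 and 11.6 for Mag. Mag therefore rested on few reads, as few as 7 in the library with the lowest count, and Egr2 on as few as 9.

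Of the 3 ages, 20 months had the lowest mean of all 7 genes, which was the case for 32.7% of the genes tested. Against 2 months, the log2 fold change at 20 months lay between -0.91 (Mag) and -0.27 (Mbp), with a median of -0.48, against a median of -0.02 over all genes tested. Only Pmp22 fell by the test, which is 1 of 7, beside 16.5% of all genes called in either direction and 7.12% called lower. The libraries of the 2 ages did not overlap for this 1 gene either, beside 36.0% of all genes. All 7 genes had a higher mean at 28 than at 20 months (0.09 to 0.85 on the log2 scale, median 0.36), except that Egr2 and S100b were lower by quantile normalization (-0.003 and -0.05) and Egr2 by edgeR (-0.01), and none was called, beside 0.379% of all genes. Between 28 and 2 months none of the 7 was called, beside 13.8% of all genes, with 2 differences above zero and 5 below (Prx, at -0.002, was above zero when the libraries were rescaled, at 0.07, and by edgeR and DESeq2). By unadjusted p under 0.05, 2 of the 7 passed between 20 and 2 months (31.5% of all genes), 1 between 28 and 2 months (28.1%) and 2 between 28 and 20 months (10.6%), and both edgeR and DESeq2 on recovered reads called 1, 0 and 0. The sign of some of these differences rested on single libraries. Between 28 and 20 months, Egr2 was at -0.33 without 20-month replicate 1 and -0.15 without 28-month replicate 3, and S100b at -0.13 without 20-month replicate 2 and -0.15 without 28-month replicate 3. Between 28 and 2 months, Mbp was at -0.09 without 28-month replicate 3 and Egr2 at 0.004 without 28-month replicate 2. The differences between 20 and 2 months and between 28 and 20 months share the 20-month libraries, so a low 20-month mean enters both.

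**Figure D1:**
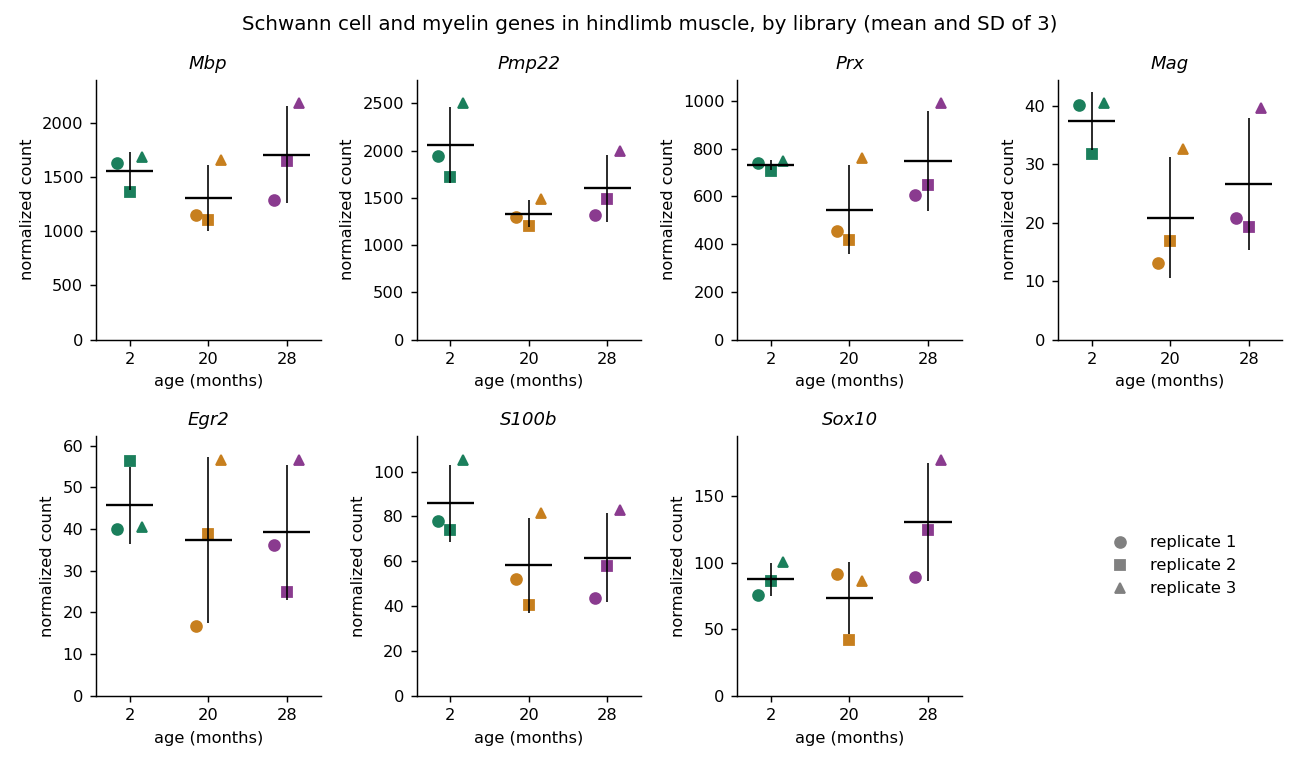
Normalized RNA-seq counts of the 7 genes (vertical axis, starting at 0) against age in months, with 1 point per mouse, the marker shape giving the replicate number, and the mean and SD of 3 mice in black. The 20-month mean is the lowest of the 3 ages for each gene, and the triangles of replicate 3 are the highest point at 28 months in each panel.

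Pmp22 encodes a tetraspan protein of compact myelin whose gene dosage is altered in inherited neuropathies. Its normalized counts were 1946, 1722 and 2499 at 2 months, 1298, 1206 and 1489 at 20 months, and 1321, 1482 and 1995 at 28 months. Every 20-month library lay below every 2-month library, and the 28-month libraries overlapped with both. The mean went from 2055 ± 400 (SD, n = 3) to 1331 ± 144, which is a log2 fold change of -0.61 (SE 0.16, 95% interval -0.96 to -0.27, limma adjusted p = 0.0205). It was -0.55 in the libraries numbered 1 and 2 and -0.75 in those numbered 3. The call was lost without 2-month replicate 3 (-0.47, limma adjusted p = 0.0702), without 20-month replicate 1 (-0.60, 0.0735) and without 20-month replicate 2 (-0.55, 0.0831), and when the libraries were rescaled to the same sum (-0.59, 0.413). At 28 months the difference from 2 months was -0.37 (SE 0.16, interval -0.71 to -0.02, adjusted p = 0.153), and it was called once a term for the libraries numbered 3 was added to the limma fit (adjusted p = 0.0133). This 28-month difference was -0.387 in the libraries numbered 1 and 2 and -0.325 in those numbered 3. Pmp22 is also made outside nerve, for example in fibroblasts. Of 7 fibroblast genes 4 fell at 20 months and 4 at 28 months. Of all genes 7.12% were called lower at 20 months and 13.8% in either direction at 28 months. The normalized counts of the fibroblast genes summed to 53130 to 108400 at 2 months, 22810 to 25770 at 20 months and 22890 to 31160 at 28 months. The part of fibroblasts in the lower level of Pmp22 was not tested.

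Pmp22 lies on mouse chromosome 11 at chr11:63128982-63159547 on the plus strand of GRCm38.p6 and is transcribed from several starts. The 250 bases before 2 of them are shown, with each CpG in capitals, because methyl-CpG capture can only report on CpGs and the starts differ in how many they have. The first, upstream of the whole gene at chr11:63128732-63128981, has 3 CpGs, and the second, within the gene at chr11:63131207-63131456, has 14. Both were read from the plus strand of the RefSeq promoter table, which held windows for 5 of the 7 genes (Mbp and Sox10 had none).
Pmp22 upstream start: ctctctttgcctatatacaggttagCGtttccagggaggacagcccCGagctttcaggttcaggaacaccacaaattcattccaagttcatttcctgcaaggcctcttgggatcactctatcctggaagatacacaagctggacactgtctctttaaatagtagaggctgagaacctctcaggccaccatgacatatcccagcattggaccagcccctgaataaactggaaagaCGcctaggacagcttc
Pmp22 internal start: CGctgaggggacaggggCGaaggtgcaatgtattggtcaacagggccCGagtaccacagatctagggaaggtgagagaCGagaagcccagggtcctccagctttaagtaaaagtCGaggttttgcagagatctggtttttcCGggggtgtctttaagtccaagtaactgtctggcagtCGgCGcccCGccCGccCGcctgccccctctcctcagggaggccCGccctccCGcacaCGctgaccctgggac

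Mbp encodes myelin basic protein, which draws the cytoplasmic faces of the membrane together. The Mbp libraries read 1629, 1359 and 1683 at 2 months, 1154, 1105 and 1657 at 20 months, and 1292, 1648 and 2180 at 28 months. The 3 ages overlapped. The log2 fold change at 20 months was -0.27 (SE 0.18, interval -0.67 to 0.13, limma adjusted p = 0.34), made up of -0.40 in the libraries numbered 1 and 2 and -0.02 in those numbered 3. At 28 months it was 0.11 against 2 months (interval -0.29 to 0.51, adjusted p = 0.754) and 0.38 against 20 months (interval -0.02 to 0.78, adjusted p = 0.499). Against 2 months it was -0.03 in the libraries numbered 1 and 2 and 0.37 in those numbered 3. With 1 library left out, the difference between 28 and 20 months was 0.185 to 0.562. Rpl21-ps8 and Gm52337 overlap the span of Mbp in the annotation, and the library kit does not mark the strand. Whether they overlap its exons was not looked at.

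Prx encodes periaxin, a scaffold that links the outer Schwann cell membrane through dystroglycan to the basal lamina. Its counts were 740, 705 and 748 at 2 months, 456, 418 and 759 at 20 months, and 605, 649 and 989 at 28 months. Replicates 1 and 2 at 20 months were below all 2-month libraries, whereas replicate 3 was above them. The log2 fold change at 20 months was accordingly -0.72 in the libraries numbered 1 and 2 and 0.02 in those numbered 3, and over all 9 libraries -0.48 (SE 0.22, interval -0.94 to -0.01, limma adjusted p = 0.15). With a term for the libraries numbered 3 it was called (adjusted p = 0.0313), as it was without 20-month replicate 3 (-0.74, adjusted p = 0.0214). That term raised the count among the 7 genes to 2 at 20 months, beside 21.5% of all genes, and to 1 at 28 months, beside 18.4%. At 28 months the mean of Prx was 748 ± 210 against 731 ± 22.9 at 2 months (log2 fold change -0.002, interval -0.47 to 0.46, adjusted p = 0.996). This 28-month difference was -0.20 in the libraries numbered 1 and 2 and 0.40 in those numbered 3. Prx lies at chr7:27499305-27520041 on the plus strand and overlaps Gm15541. Its start in the RefSeq promoter table is just inside the upstream edge of that span, so the last of the bases shown lie within the span. The 250 bases before that start (chr7:27499074-27499323, RefSeq, GRCm38.p6, plus strand) hold 2 CpGs, in capitals, and are shown as those of a CpG-poor start whose capture is given below.
Prx start: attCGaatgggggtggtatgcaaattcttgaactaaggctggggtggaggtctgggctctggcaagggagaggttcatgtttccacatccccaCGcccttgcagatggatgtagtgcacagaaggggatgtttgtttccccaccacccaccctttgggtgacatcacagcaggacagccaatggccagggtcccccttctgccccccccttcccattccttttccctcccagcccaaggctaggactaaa

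Mag encodes myelin-associated glycoprotein, a lectin of the periaxonal membrane that binds axonal gangliosides. It was detected at 40.1, 31.7 and 40.4 normalized counts at 2 months, 13.1, 16.9 and 32.7 at 20 months, and 20.9, 19.3 and 39.6 at 28 months. At both older ages, replicates 1 and 2 were below all 2-month libraries and replicate 3 within their range. The log2 fold change at 20 months was -0.91, the largest of the 7 in size, but with an SE of 0.45 and an interval of -1.88 to 0.07 it was not called (limma adjusted p = 0.19). It was -1.21 in the libraries numbered 1 and 2 and -0.30 in those numbered 3. At 28 months it was -0.54 (interval -1.52 to 0.43, adjusted p = 0.471), made up of -0.80 in the libraries numbered 1 and 2 and -0.03 in those numbered 3. Mag lies on the minus strand at chr7:30899175-30914922. The 250 bases before its most upstream start (chr7:30914923-30915172, minus strand, RefSeq, GRCm38.p6) are shown with CpGs in capitals, since the starts of Mag were the most strongly captured of the 5 genes. A further start of Mag, within the gene, was captured more strongly than the printed one (57.3 against 36.8 normalized counts per bin in muscle at 2 months).
Mag start: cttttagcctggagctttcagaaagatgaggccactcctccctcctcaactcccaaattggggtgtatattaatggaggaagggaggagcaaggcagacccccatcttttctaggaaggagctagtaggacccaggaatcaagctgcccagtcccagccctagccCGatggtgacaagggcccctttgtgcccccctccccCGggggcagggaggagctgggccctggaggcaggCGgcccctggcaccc
The window of this start holds 3 CpGs at a GC content of 63%, against a median of 7 CpGs over the 32851 windows of the RefSeq table. It also holds the letters ACAAAG, which the family of Sox10 can bind, on the opposite strand, as did 18.7% of all windows on either strand. The other letters searched on both strands did not occur at this start: ACAATG (12.6% of all windows), GTGGGCG (7.97%) and GGGGGCG (16.4%), the latter pair for zinc fingers of the Egr family, and TATAAA (13.6%).

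Egr2 (also Krox20) is the zinc finger factor required for myelination. Its counts of 40.1, 56.4 and 40.4 at 2 months, 16.8, 38.8 and 56.7 at 20 months and 36.1, 24.9 and 56.6 at 28 months overlapped throughout. The log2 fold change was -0.42 at 20 months (interval -1.40 to 0.56, limma adjusted p = 0.566) and -0.28 at 28 months (interval -1.26 to 0.71, adjusted p = 0.739). The libraries numbered 1 and 2 gave -0.87 at 20 months and -0.65 at 28 months, and those numbered 3 gave 0.48 at both, so that the sign differed with the number. Without 20-month replicate 1 the 20-month difference was 0.06. Egr2 is also an immediate early gene in other cells. Of 9 other immediate early genes, 4 rose at 20 months, beside 9.43% of all genes called higher. At 28 months 4 rose and 1 fell, beside 13.8% of all genes called in either direction. The part of other cells in the level of Egr2 was not tested. Gm32255 overlaps Egr2 at chr10:67534469-67542188.

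Sox10 was the gene with the highest 28-month mean relative to 2 months. It gave 75.8, 86.3 and 100.3 normalized counts at 2 months, 91.5, 42.2 and 86.1 at 20 months, and 89.2, 124.3 and 177.4 at 28 months. The 28-month libraries reached higher but overlapped with both younger ages. The mean was 130 ± 44.4 at 28 months against 87.5 ± 12.3 at 2 months and 73.3 ± 27.1 at 20 months, that is 0.52 on the log2 scale (interval -0.18 to 1.23, limma adjusted p = 0.324) and 0.85 (interval 0.14 to 1.55, adjusted p = 0.373). Against 20 months it was higher both in the libraries numbered 1 and 2 (0.75) and in those numbered 3 (1.03), and against 2 months likewise (0.38 and 0.82). With 1 library left out, the 28-month difference was 0.27 to 0.77 against 2 months and 0.49 to 1.09 against 20 months. The difference between 20 and 2 months was -0.32, and it was 0.03 without 20-month replicate 2. It was -0.37 in the libraries numbered 1 and 2 and -0.22 in those numbered 3.

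S100b read 78.0, 74.0 and 105.4 at 2 months, 52.3, 40.5 and 81.7 at 20 months, and 43.6, 58.0 and 83.0 at 28 months. Here too replicates 1 and 2 of both older ages were below the 2-month libraries and replicate 3 was within their range. The log2 fold changes against 2 months were -0.59 (interval -1.30 to 0.11, limma adjusted p = 0.236) and -0.50 (interval -1.21 to 0.20, adjusted p = 0.345). At 20 months S100b gave -0.71 in the libraries numbered 1 and 2 and -0.36 in those numbered 3, and at 28 months -0.585 and -0.34. S100b is also made in cartilage and fat cells. Of 7 adipocyte genes 5 fell at 20 months and 2 at 28 months, with summed normalized counts of 7455 to 11320 at 2 months, 4888 to 5485 at 20 months and 4761 to 6996 at 28 months. Of all genes 7.12% were called lower at 20 months and 13.8% in either direction at 28 months. The 7 cartilage genes summed to 449 to 3348, 847 to 1339 and 725 to 1112, and Matn1 was at 0 in all 9 libraries. Of the 5 cartilage genes tested, 1 rose and 1 fell at each older age, beside 16.5% and 13.8% of all genes called. The part of these cells in the level of S100b was not tested.

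**Figure D2:**
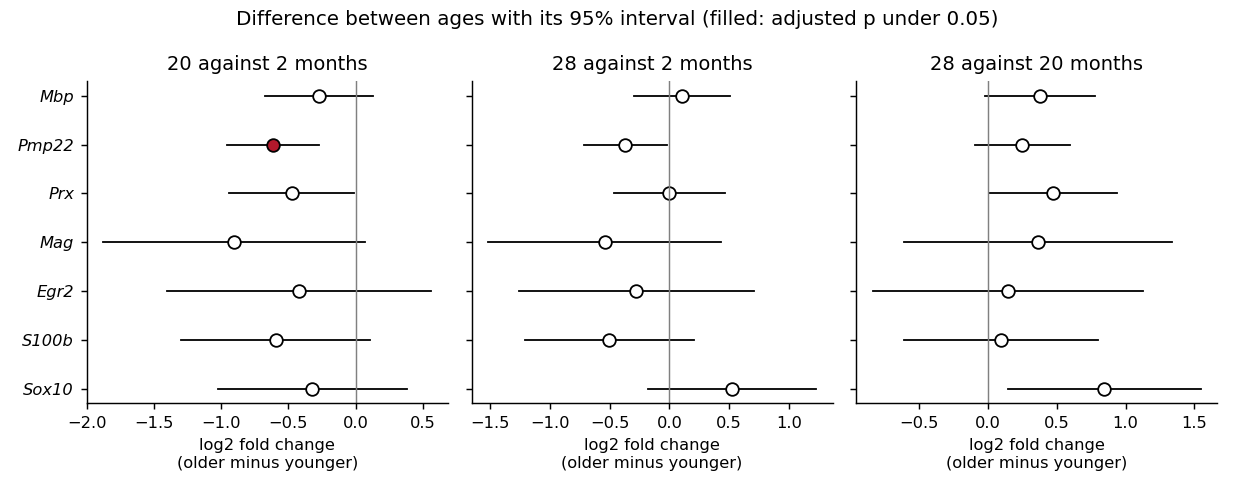
Log2 fold change (horizontal axis, older minus younger) of the 7 genes, with its 95% interval from limma on log2(normalized count + 1), for the 3 comparisons of ages. Between 20 and 2 months every point is below zero and 1 is filled (Pmp22, adjusted p under 0.05), and between 28 and 20 months every point is above zero (Egr2 and S100b below it by quantile normalization) and none is filled.

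Among mice of one age, most pairs of the 7 genes varied in the same direction, Egr2 the least with the others. After the mean of each age was subtracted, Pearson's r over the 9 libraries had a median of 0.742 over the 21 pairs of genes, from 0.015 (Egr2 and Sox10) to 0.943 (Mbp and S100b). This is a description over libraries that share the difference of the number 3. Replicate 3 was the highest of its age for 6 of the 7 genes at 2 months, 6 at 20 months and 7 at 28 months, against 33.8%, 34.1% and 32.9% of all genes tested. Without the 3 libraries numbered 3, which was tried after seeing the data, the 20-month differences of all 7 genes were again below zero and 2 were called, Pmp22 (-0.55, limma adjusted p = 0.0204) and Prx (-0.72, 0.0123), beside 8.34% of all genes. At 28 months 0 of the 7 were called, beside 5.26%.

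The genes whose level followed the mean of the 7 standardized genes most closely over the 9 libraries were Pygb (r = 0.967), Slc4a2 (0.957), Pydc3 (0.946), Sepp1 (0.942) and Nek3 (0.937). After subtraction of the age means they were Pygb (0.986), Ppp2r3c (0.970), Tmem29 (0.970), Fam5b (0.969) and Kif5a (0.968). Pygb, the brain form of glycogen phosphorylase, led both.

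A wider set of 52 genes of Schwann cells, myelin and axons was read in the same way, of which 39 passed the filter. At 20 months 6 of the 39 were called, 2 lower and 4 higher, with a median log2 fold change of -0.09, which is about the share of all genes called in either direction (16.5%). At 28 months 5 were called, all higher, beside 7.53% of all genes called higher. None was called by limma between 28 and 20 months. The 2 that fell were Cldn19 and Cnp. Cldn19 encodes a claudin of the Schwann cell tight junctions and Cnp a phosphodiesterase of non-compact myelin. At 20 months the cell adhesion molecules L1cam and Ncam1, Adam22, a partner of the secreted protein Lgi4, and the ubiquitin hydrolase Uchl1 rose. At 28 months L1cam, Ncam1 and Uchl1 rose, with the cadherin Cdh19 and Scn7a, a sodium channel of non-myelinating Schwann cells.

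All 4 genes listed with compact myelin had a lower mean at 20 months than at 2 months (-1.23 to -0.43, median -0.71). The 1 that fell, beside 7.12% of all genes called lower, was Cldn19, whose tight junctions lie in non-compact parts of the sheath. Cldn19 fell by 1.23 at 20 months (107.0, 133.9 and 203.6 against 76.6, 32.1 and 89.4, limma adjusted p = 0.0342) and was 104.4, 146.4 and 143.4 at 28 months. Pmp2, a lipid carrier of myelin, had means of 21.6, 10.5 and 10.4 at the 3 ages with overlapping libraries.

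Among the 9 tested genes of non-compact myelin, nodes and paranodes, Cnp alone was called, at 20 months, beside 7.12% of all genes called lower. It read 682, 511 and 501 at 2 months, 366, 371 and 360 at 20 months, and 376, 518 and 659 at 28 months (20 against 2 months -0.61, limma adjusted p = 0.0391). The call of Cnp was lost without 2-month replicate 1 (adjusted p = 0.146), each 20-month replicate (0.0864 to 0.105) or 28-month replicate 2 (0.0619). That of Cldn19 was lost without 2-month replicates 2 or 3, 20-month replicates 1 or 2 or 28-month replicate 2 (0.0513 to 0.115). When the libraries were rescaled to the same sum, the adjusted p of Cnp and Cldn19 were 0.54 and 0.0854. Without a filter they were 0.0509 and 0.0534, and without the 3 libraries numbered 3 they were 0.0642 and 0.0899. With only the 2 ages fitted, that of Cldn19 was 0.075. Gjb1, the connexin of the Schwann cell incisures, was at 3.5 to 18.9 normalized counts at all ages. None of the 3 tested myelin lipid enzymes and none of the 6 tested transcription factors was called at either older age. Of all genes 16.5% were called at 20 months and 13.8% at 28 months.

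Among the 14 tested receptor and signal genes, 3 rose at 20 months (L1cam, Ncam1, Adam22) and 4 at 28 months (L1cam, Cdh19, Ncam1, Scn7a), beside 9.43% and 7.53% of all genes called higher. L1cam had 46.8, 59.9 and 109.7 counts at 2 months, 173.7, 99.5 and 188.5 at 20 months, and 161, 213 and 185 at 28 months (28 against 2 months 1.44, limma adjusted p = 0.00999). Cdh19, a cadherin of the Schwann cell lineage, had 46.8, 54.6 and 51.3, then 95.3, 60.7 and 92.6, then 127.1, 71.8 and 179.3 (1.20, adjusted p = 0.0265). Both older ages were above the 2-month libraries for Cdh19. Scn7a went from 446, 405 and 449 at 2 months to 634, 595 and 730 at 28 months (0.59, adjusted p = 0.00494). Erbb3, the receptor for axonal neuregulin, had means of 181, 125 and 169 at the 3 ages (20 against 2 months -0.51, adjusted p = 0.0941). Ngfr, the low affinity neurotrophin receptor that marks immature and denervated Schwann cells, had 78.0, 51.1 and 91.0 at 2 months, 59.8, 48.9 and 47.4 at 20 months, and 119, 102 and 117 at 28 months. The 28-month libraries of Ngfr were above all others, and neither difference was called by limma (0.65 against 2 months, limma adjusted p = 0.121, and 1.11 against 20 months, adjusted p = 0.11). The difference of 1.11 was the highest of the 39 tested genes between 28 and 20 months. DESeq2 on recovered reads called Ngfr between these 2 ages (DESeq2 adjusted p = 0.0152).

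Some of these higher levels rested on single libraries. At 20 months the call of L1cam was lost without 2-month replicate 1 or 2 or 20-month replicate 1 or 3 (limma adjusted p 0.0644 to 0.113), that of Ncam1 without 2-month replicate 2 or 20-month replicate 1 or 3 (0.0639 to 0.0942), and that of Adam22 without 2-month replicate 1 or 3, any 20-month replicate or 28-month replicate 1 (0.0585 to 0.154). At 28 months the call of Cdh19 was lost without 2-month replicate 1 or 3 or 28-month replicate 1 or 3 (0.0564 to 0.114). The 28-month calls of L1cam, Ncam1 and Scn7a were kept without any single library. With the libraries rescaled to the same sum, the differences were about as large but fewer were called. At 20 months L1cam was at 1.15 (limma adjusted p = 0.0896), Ncam1 at 0.68 (0.341) and Adam22 at 0.68 (0.542), and at 28 months Ncam1 at 0.89 (0.0891), Scn7a at 0.66 (0.406) and Cdh19 at 1.27 (0.0967). The 20-month call was also lost for L1cam when only the 2 ages were fitted (0.0709) and for Adam22 without a filter (0.0775), with a pseudocount of 0.1 (0.0506) and by edgeR (0.0509). Without the 3 libraries numbered 3, the 20-month adjusted p of Ncam1 and Adam22 were 0.104 and 0.208, and the 28-month adjusted p of Cdh19, Ncam1 and Scn7a were 0.219, 0.102 and 0.0617.

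The mRNAs of axonal proteins are made mostly in the cell bodies of the neurons, which lie outside muscle. Of 9 axon genes, 3 passed the filter. Of the others, Tubb3, a neuronal tubulin named after its values were seen, had a mean just under the filter and was not tested. It had 0 to 4.33 normalized counts at 2 months, 1.87 to 8.44 at 20 months and 5.69 to 39.6 at 28 months. The remaining 5 reached 1.87 to 14.4 in their highest library, and Nefl was at 0 in 7 of 9 libraries. Uchl1 rose from 75.8, 74.0 and 90.2 counts at 2 months to 323, 255 and 306 at 20 months and 357, 290 and 432 at 28 months (1.87 and 2.14, limma adjusted p = 4.8e-05 and 1.4e-05). Prph, peripherin, named after its values were seen, had means of 24.4, 9.29 and 10.2 at the 3 ages. The differences were not called (-1.36 and -1.27, limma adjusted p = 0.167 and 0.217). Stmn2, the other tested axon gene, had means of 87.3, 148.6 and 126.7, and was not called either (0.79 and 0.57, adjusted p = 0.0695 and 0.197). Ncam1 is made by denervated muscle fibres as well as by Schwann cells. Of 9 genes of denervated muscle fibres, 5 rose at 20 months and 8 at 28 months, beside 9.43% and 7.53% of all genes called higher. Their summed normalized counts were 8853 to 10250 at 2 months, 9262 to 11160 at 20 months and 12680 to 15800 at 28 months. The part of muscle fibres in the higher level of Ncam1 was not tested.

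**Figure D3:**
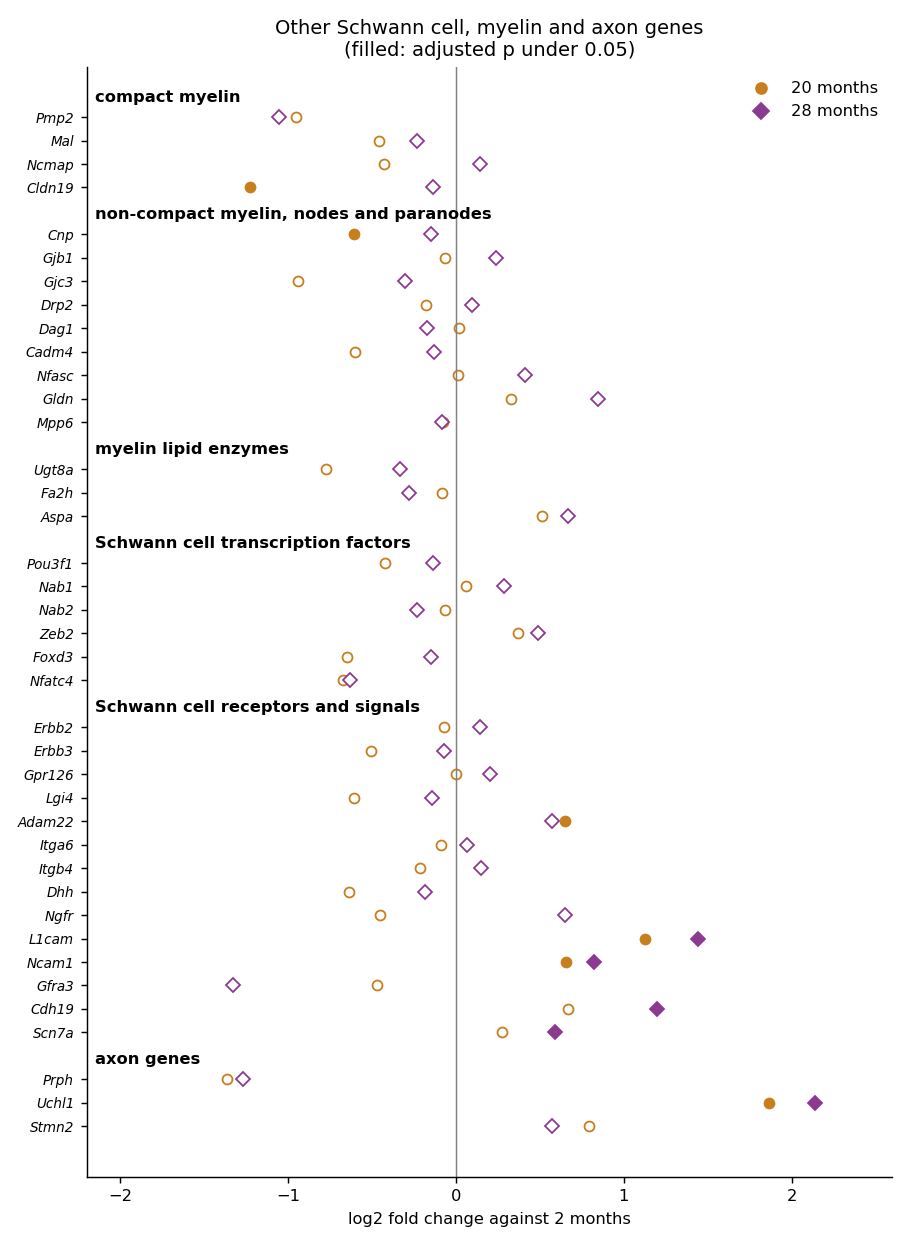
Log2 fold change against 2 months (horizontal axis) of the 39 tested genes of 6 lists, at 20 months (circles) and 28 months (diamonds), filled where the adjusted p was under 0.05. The 4 genes listed with compact myelin lie left of zero at 20 months, and the filled diamonds are L1cam, Ncam1, Cdh19, Scn7a and Uchl1, all right of zero.

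The other cell types of whole muscle gave the following. None of 7 endothelial genes and none of 6 skeletal muscle fibre genes was called at either older age, beside 16.5% and 13.8% of all genes. The endothelial genes summed to 10870 to 15080 at 2 months, 10600 to 12030 at 20 months and 11320 to 13440 at 28 months, and the muscle fibre genes to 5140000 to 6631000 over all ages. Fibroblast, adipocyte and cartilage genes are given above. Of 7 macrophage genes 1 fell at 20 months, beside 7.12% of all genes called lower. The macrophage genes summed to 2025 to 2905, 1922 to 1998 and 1723 to 2663. The red blood cell genes summed to 1690 to 8982, 2294 to 3634 and 3408 to 3835, with Hba-a1 at 0 in all libraries. The part of these cells in the levels of the 7 genes was not tested.

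Methyl-CpG capture at the starts of these genes was compared between ages, with 1 pool per age and tissue and hence no test. The values are mean normalized counts per 500-bp bin over the bins that overlap the windows from 250 bases before to 50 bases after each start, with exact Poisson intervals that cover counting error only. For muscle the labels list 2 captures per age and the table holds 1 column per age, which it does not tie to either. Mag was the only one of the 5 genes with a strongly captured start. In muscle it had 41.2 at 2 months (136 reads, 95% interval 34.6 to 48.8), 25 at 20 months (89 reads, 20.1 to 30.7) and 17.0 at 28 months (80 reads, 13.5 to 21.2). In T cells it had 38.6, 44.2 and 44.5. The intervals in muscle of both older ages lie below that of 2 months, and those in T cells overlap.

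The other 4 genes had at most 10.2 in muscle. The Pmp22 starts had 0.758 at 2 months (5 reads), 0.140 at 20 months (1 read) and 5.63 at 28 months (53 reads, interval 4.22 to 7.36), and in T cells 5.24, 5.88 and 14.8. Its CpG-poor upstream start and its CpG-rich internal start, printed above, had 8.60 and 4.14 in muscle at 28 months, and 2.27 and 0 at 2 months. Prx had 2.73, 3.37 and 10.2 in muscle (3, 4 and 16 reads) and 0, 1.22 and 0 in T cells. Egr2 had 0, 0.842 and 3.19 in muscle (0, 4 and 20 reads), although its windows hold 16 to 32 CpGs, and S100b had 1.82, 3.37 and 4.46 (2, 4 and 7 reads). On the log2(normalized count + 1) scale, 3 of the 5 genes were more than 2-fold higher at 28 than at 2 months (Pmp22, Prx and Egr2), beside 34.1% of 26516 genes, and Mag was past 2-fold lower (-1.23), beside 8.07%. The median of the 5 was 1.59 against 0.46 over all genes, and -0.02 when all bins within 1 kb of the starts were taken. With the libraries rescaled to the same sum it was 2.08, and the single genes, Mag among them, are given without rescaling.

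Over the whole span of each gene, a measure added after seeing the data, capture could be given for all 7. In muscle each of them was lower at 28 than at 2 months, by 0.28 (Pmp22 and S100b) to 1.05 (Egr2) on the log2 scale with a median of -0.53 against -0.23 over 21522 genes. Thus 0 of 7 were higher, beside 32.6% of all genes. In T cells all 7 were higher (median 0.40 against 0.25), beside 81.4% of all genes, a share near that of the background. Mbp, for example, had 41.1, 34.8 and 28.1 per bin in muscle at the 3 ages and 37.4, 47.8 and 53.0 in T cells. These values were not rescaled to the same sum. In muscle a read stood for 0.910 normalized counts at 2 months and 0.637 at 28 months. In T cells it stood for 1.02 and 1.32. Reads on bins were 135321218 and 141889499 in muscle and 196263907 and 188758989 in T cells. The column sums thus moved like the spans, down in muscle and up in T cells. The part of this scale in the span differences was not tested.

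**Figure D4:**
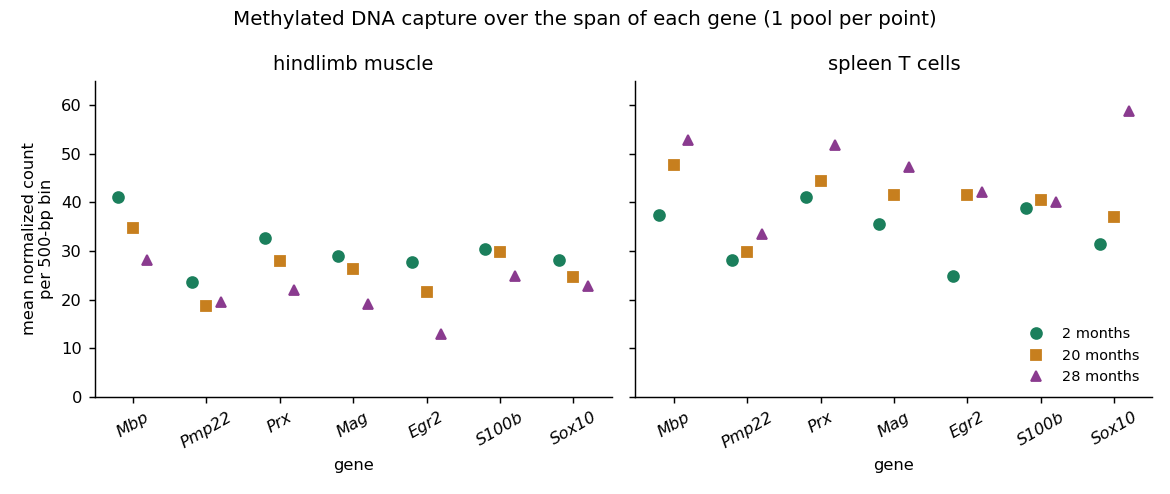
Mean normalized MBD-seq count per 500-bp bin over the span of each gene (vertical axis, from 0) in hindlimb muscle and spleen T cells, with 1 point per pool and the marker giving the age. In muscle the 28-month triangle lies below the 2-month circle for each gene, and in T cells above it. The columns were not rescaled to the same sum. Their sum was lower at 28 than at 2 months in muscle and higher in T cells.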

How the data were processed

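RNA-seq was read in 9 hindlimb muscle libraries and MBD-seq in 6 pools (muscle and T cells at 3 ages). The authors trimmed reads with Trim Galore, aligned MBD-seq to mm10 with Bowtie2 and RNA-seq with Hisat2 (TopHat in the submitters' processing notes), counted with HTSeq and bedtools, and divided the counts by DESeq2 size factors. The deposited values are such normalized counts (a signal, not counts). In each library 100% of them were whole multiples of 1 read within 0.01 of a read, so reads were recovered for edgeR 4.0.16 and DESeq2 1.42.0. No column of per-sample values was left unmapped.

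Here, log2(normalized count + 1) of genes with a mean of at least 10 was fitted by age over all 9 libraries with limma 3.58.1 (trend, two-sided, Benjamini-Hochberg over 13183 genes) in R 4.3.3. limma called 2181, 1816 and 50 genes for 20 against 2, 28 against 2 and 28 against 20 months, edgeR 2191, 1778 and 50 and DESeq2 2559, 2125 and 227. Log2 fold changes understate low genes. Alternatives were pseudocounts of 0.1 and 5, no filter or a mean of 50, rescaling to the same sum, quantile normalization, a replicate block, a term for the libraries numbered 3, only the 2 ages compared, and leaving out each library. The 7 genes and the lists were chosen with earlier results of these data known. Named were the 7 genes, of the wider lists Pmp2, Cnp, Gjb1, Erbb3, Ngfr and those called, and the 5 genes most like the 7 by each of 2 measures; of other lists only counts, sums and genes at 0 are given, and Prph, Stmn2 and Tubb3 were added after their values were seen. Some genes of the lists are not reported here. Transcript lengths are from GENCODE, spans and starts from RefSeq (GRCm38.p6, the same build as mm10). The p-values of the main limma fit rest on the spread between mice within ages, pooled over the 3 ages and moderated over genes.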

Additional observations from a re-analysis of the deposited data

How the results depend on the processing

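Of 1185 single-gene differences recomputed, 1084 kept their direction and side of the threshold, 39 that were not called changed sign, 53 lost the call, 9 gained it and 0 reversed after a call. Rescaling to the same sum left 0 of the 7 genes called at 20 months, 1 and 2 of the wider set at 20 and 28 months, and 389, 417 and 31 of all genes for 20 against 2, 28 against 2 and 28 against 20 months. The term for the libraries numbered 3 gave 2 and 1 of the 7 genes at 20 and 28 months and 108 of all genes between 28 and 20 months. The replicate block gave 2 (with Prx, limma adjusted p = 0.0345) and 1 (Pmp22, 0.015) of the 7 genes, 9 and 7 of the wider set, and 2982, 2523 and 143 of all genes. The replicate numbers were not taken as pairs, since the correlation was over 0.1 in every pair for number 3 only. Same-numbered libraries deviated from their age means with correlations of -0.008 to 0.069 (number 1), -0.04 to 0.1 (number 2) and 0.111 to 0.163 (number 3). DESeq2 called 1 of the wider set, Ngfr, between 28 and 20 months and 227 of all genes there, and the fit of 2 ages alone 76. Without a filter, 3 of the wider set were called at 20 months. Without the 3 libraries numbered 3, an alternative chosen after seeing the data, 2 of the 7 genes and 2 of the wider set were called at 20 months, 2 of the wider set at 28 months, and 1099, 694 and 10 of all genes. Leaving out 1 library gave 0 to 2 of the 7 genes at 20 months and 0 to 1 at 28 months, 1 to 6 and 4 to 6 of the wider set, and 1083 to 2227, 963 to 1850 and 14 to 88 of all genes. The median capture at the starts, 28 against 2 months, was -0.021 over bins within 1 kb. The cause of these shifts was not tested. Depth limits Mag, Egr2 and the capture at starts other than that of Mag.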
